A study of Mus musculus with 65 samples.

Results

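Immediate early genes are genes whose transcription starts within minutes of a growth factor, neurotransmitter or stress signal without new protein synthesis. The 10 described here are Arc, Fos, Fosb, Fosl1, Egr1, Egr2, Egr3, Junb, Ier2 and Ier3, taken by symbol from a bulk RNA-seq count table of 31057 features. Each was found once in the table, and all 10 passed the filter on low counts in every comparison. The cultures were primary neural stem cells from the subventricular zone of adult mice, a niche along the lateral ventricle that makes new neurons and glia. All animals, controls included, had the iOSKM genotype, in which doxycycline switches on the reprogramming factors OSKM (Oct4, Sox2, Klf4 and Myc). The labels do not state the promoter of the cassette.

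The donors were 9 mice, of which 5 were young (aged 3 to 4 months), 4 were old (aged 25 months) and 5 were female. Untreated young and untreated old cells were sampled at 18 h in neural stem cell (NSC) medium, which contains EGF and bFGF, and at 6, 18 and 48 h in differentiation medium, which lacks both growth factors and replaced the NSC medium 18 h after plating. Doxycycline (2 µg/ml) was given to young cells at 18 h in NSC medium, and to old cells at 6, 18 and 48 h in each medium. This gave 15 groups, each with 5 young or 4 old animals, and 65 libraries. No untreated group in NSC medium at 6 or 48 h was analysed here, and the labels do not say from which moment the hours are counted.

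The AP-1 members were Fos (ENSMUSG00000021250, chr12:85473890-85477273, plus strand), Fosb (ENSMUSG00000003545, chr7:19302696-19310051, minus strand), Fosl1, which encodes FRA1 (ENSMUSG00000024912, chr19:5447547-5455946, plus strand), and Junb, a JUN family partner of FOS proteins (ENSMUSG00000052837, chr8:84974484-84978718, minus strand). The zinc finger factors were Egr1 (ENSMUSG00000038418, chr18:34859823-34864984, plus strand), Egr2, also known for its role in Schwann cell myelination (ENSMUSG00000037868, chr10:67535475-67542188, plus strand), and Egr3 (ENSMUSG00000033730, chr14:70077203-70082614, plus strand). Arc encodes a cytoskeleton-associated protein of neuronal dendrites that acts in AMPA receptor trafficking (ENSMUSG00000022602, chr15:74669083-74672570, minus strand). Ier2 is a short nuclear immediate early response gene (ENSMUSG00000053560, chr8:84661331-84662852, minus strand), and Ier3 encodes a stress-responsive regulator of survival and an ERK substrate (ENSMUSG00000003541, chr17:35821684-35822923, plus strand). Coordinates are of mm10 (GRCm38) from GENCODE. Junb overlaps Prdx2 and Fosl1 overlaps Ccdc85b on the opposite strand, and whether reads were counted by strand is not given in the sources used here, so counts of these 2 members may hold reads of the partner.

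Growth factor receptors pass their signal through Ras, Raf, MEK and ERK to kinases that phosphorylate the Elk ternary complex factors on serum response factor (SRF), and CREB on cyclic AMP response elements. These proteins sit on immediate early promoters before the signal arrives, which is why the genes respond fast. In neural stem cells EGF and bFGF keep this cascade running and the cells dividing. Most of the products are transcription factors. The EGR proteins bind a GC-rich element, and FOS and JUN proteins pair to form AP-1.

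RefSeq promoter sequences of the GRCm38.p6 build were at hand for 5 members (Fos, Fosb, Junb, Egr2 and Ier3). The 250 bases before a start of Egr2, Fos and Fosb are printed because these 3 genes took different courses in differentiation medium. Capitals mark matches, on either strand, to the SRF element (CArG box), to TGACG, the first 5 letters of the CREB element TGACGTCA, or to the EGR element GCGNGGGCG. Egr2 is at chr10:67537619-67537868 on the plus strand, Fos at chr12:85473640-85473889 on the plus strand, and Fosb at chr7:19310046-19310295 on the minus strand.
Egr2: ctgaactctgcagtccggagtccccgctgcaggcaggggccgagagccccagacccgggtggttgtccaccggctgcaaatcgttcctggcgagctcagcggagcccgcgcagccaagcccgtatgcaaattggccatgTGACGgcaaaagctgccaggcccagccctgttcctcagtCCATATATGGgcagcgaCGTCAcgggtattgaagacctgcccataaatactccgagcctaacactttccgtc
Fos: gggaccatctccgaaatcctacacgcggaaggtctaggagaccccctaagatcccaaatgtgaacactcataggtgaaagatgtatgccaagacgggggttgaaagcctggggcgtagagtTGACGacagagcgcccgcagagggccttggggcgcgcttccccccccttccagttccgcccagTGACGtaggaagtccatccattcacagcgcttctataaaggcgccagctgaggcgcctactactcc
Fosb: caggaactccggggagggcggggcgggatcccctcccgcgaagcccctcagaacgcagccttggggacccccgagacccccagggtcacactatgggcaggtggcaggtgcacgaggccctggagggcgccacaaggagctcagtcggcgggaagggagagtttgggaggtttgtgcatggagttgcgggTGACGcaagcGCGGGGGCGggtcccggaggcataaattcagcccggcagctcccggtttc

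A CArG box was found in 1.47% of the 32851 windows of this kind in the RefSeq table, and among the 5 members only in Egr2, in 4 of its 5 windows. In the printed window it begins 72 bases before the start. Some of these Egr2 windows overlap and hold this same box, so the 4 windows do not stand for 4 separate boxes. TGACG was present in 17.8% of all windows. Fos has it at 129 and 66 bases before the start, Fosb at 60, Junb at 106, and the printed Egr2 window at 111 and, on the other strand, at 55. GCGNGGGCG was present in 4.7% of windows, and Fosb has it 50 bases before the start. Neither the full element TGACGTCA (1.55% of windows) nor the AP-1 element TGANTCA (6.75%) was found in these windows of the 5 members. A match is a string of letters only, and elements farther upstream lie outside the window.

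The libraries held between 56483730 and 116835539 counts (median 86693655), and the lowest count of a member in any library was 28. Levels are given as CPM, counts scaled by library size with TMM factors over the 65 libraries, as mean ± SD over animals. The neural stem cell and astrocyte markers summed to 2668 to 7463 CPM over the libraries. The oligodendrocyte lineage list summed to 512 to 4613 CPM, and was highest in old cells with doxycycline at 48 h of differentiation. There it summed to 3497 to 4613 CPM, beside 5780 to 6192 CPM for the stem cell and astrocyte list. Over the libraries Olig2 ran from 454 to 1021 CPM and Gpr17 from 0.296 to 3509 CPM. Mbp reached 341, Sox10 178 and Pdgfra 116 CPM, while Mog never exceeded 0.779 CPM. In the stem cell and astrocyte list Gfap ran from 0.358 to 1248 and Aqp4 from 1.60 to 832 CPM, while Sox2 stayed at 216 to 385 CPM. The neuroblast and neuron list summed to 22.6 to 270 CPM and the ependymal list to 8.23 to 75.0 CPM. The microglia list summed to 5.24 to 12.3 CPM, of which Csf1r made 4.23 to 11.2 CPM. P2ry12 reached 3.08, Tmem119 0.408 and Itgam 0.200 CPM, while Cx3cr1 and Aif1 never exceeded 0.116 CPM. The endothelial list summed to 4.38 to 24.1 CPM, with Flt1 up to 20.4 and Kdr up to 10.2 CPM. Tek reached 1.27 and Pecam1 0.506 CPM, while Cldn5 and Cdh5 never exceeded 0.192 CPM. The pericyte and fibroblast list summed to 0.771 to 8.13 CPM, with Pdgfrb up to 7.27 and Col1a1 up to 4.798 CPM. Rgs5 reached 0.738 and Col1a2 0.649 CPM, while Dcn and Lum never exceeded 0.0698 CPM. Pou5f1, which encodes Oct4, was higher with doxycycline in 21 of 21 pairs of libraries matched by animal. Its level was low in both arms, with group means of 0.267 to 0.786 CPM with doxycycline and 0.0625 to 0.205 CPM without. The ratio of these means ran from 1.81 to 5.24. In bulk RNA, fewer cells that express a gene and less RNA per cell cannot be told apart.

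Levels of most members split by medium. Arc, Egr1, Egr2, Egr3, Fosl1, Ier2, Ier3 and Junb had their highest group mean in NSC medium and their lowest in differentiation medium. So did Fosb, but it did not split by medium. Its mean was 4.38 CPM at 6 h in NSC medium with doxycycline. Its means at 6 h of differentiation (1.35 to 1.95 CPM) lay above those at 18 and 48 h in NSC medium (0.641 to 1.19 CPM). The ratio of the highest to the lowest of the 15 group means was 193 for Arc, 45.8 for Egr3, 44.0 for Fosl1, 31.3 for Egr1, 24.2 for Ier3, 20.4 for Egr2, 11.6 for Fosb, 5.36 for Ier2 and 4.19 for Junb. Fos alone had its highest mean in differentiation medium, 20.9 ± 6.81 CPM in untreated old cells at 48 h, and a ratio of 2.10.

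The order of members changed with the medium on a scale that allows genes to be compared, CPM per kilobase of the gene length in the deposited table. In untreated old cells at 18 h in NSC medium, the mean level was 59.0 for Egr1 and 36.4 for Arc, followed by 19.0 for Ier2, 8.80 for Junb, 6.90 for Fosl1, 6.64 for Ier3, 5.94 for Fos, 5.60 for Egr3, 3.37 for Egr2 and 0.190 for Fosb. At 48 h of differentiation in old cells, Fos led with 8.90 CPM per kilobase, ahead of 5.18 for Egr1, 5.02 for Ier2 and 2.76 for Junb, and Arc stood at 0.197. Fos thus stood in the lower part of the order in NSC medium and at its top in old cells at 48 h of differentiation.

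**Figure D1:**
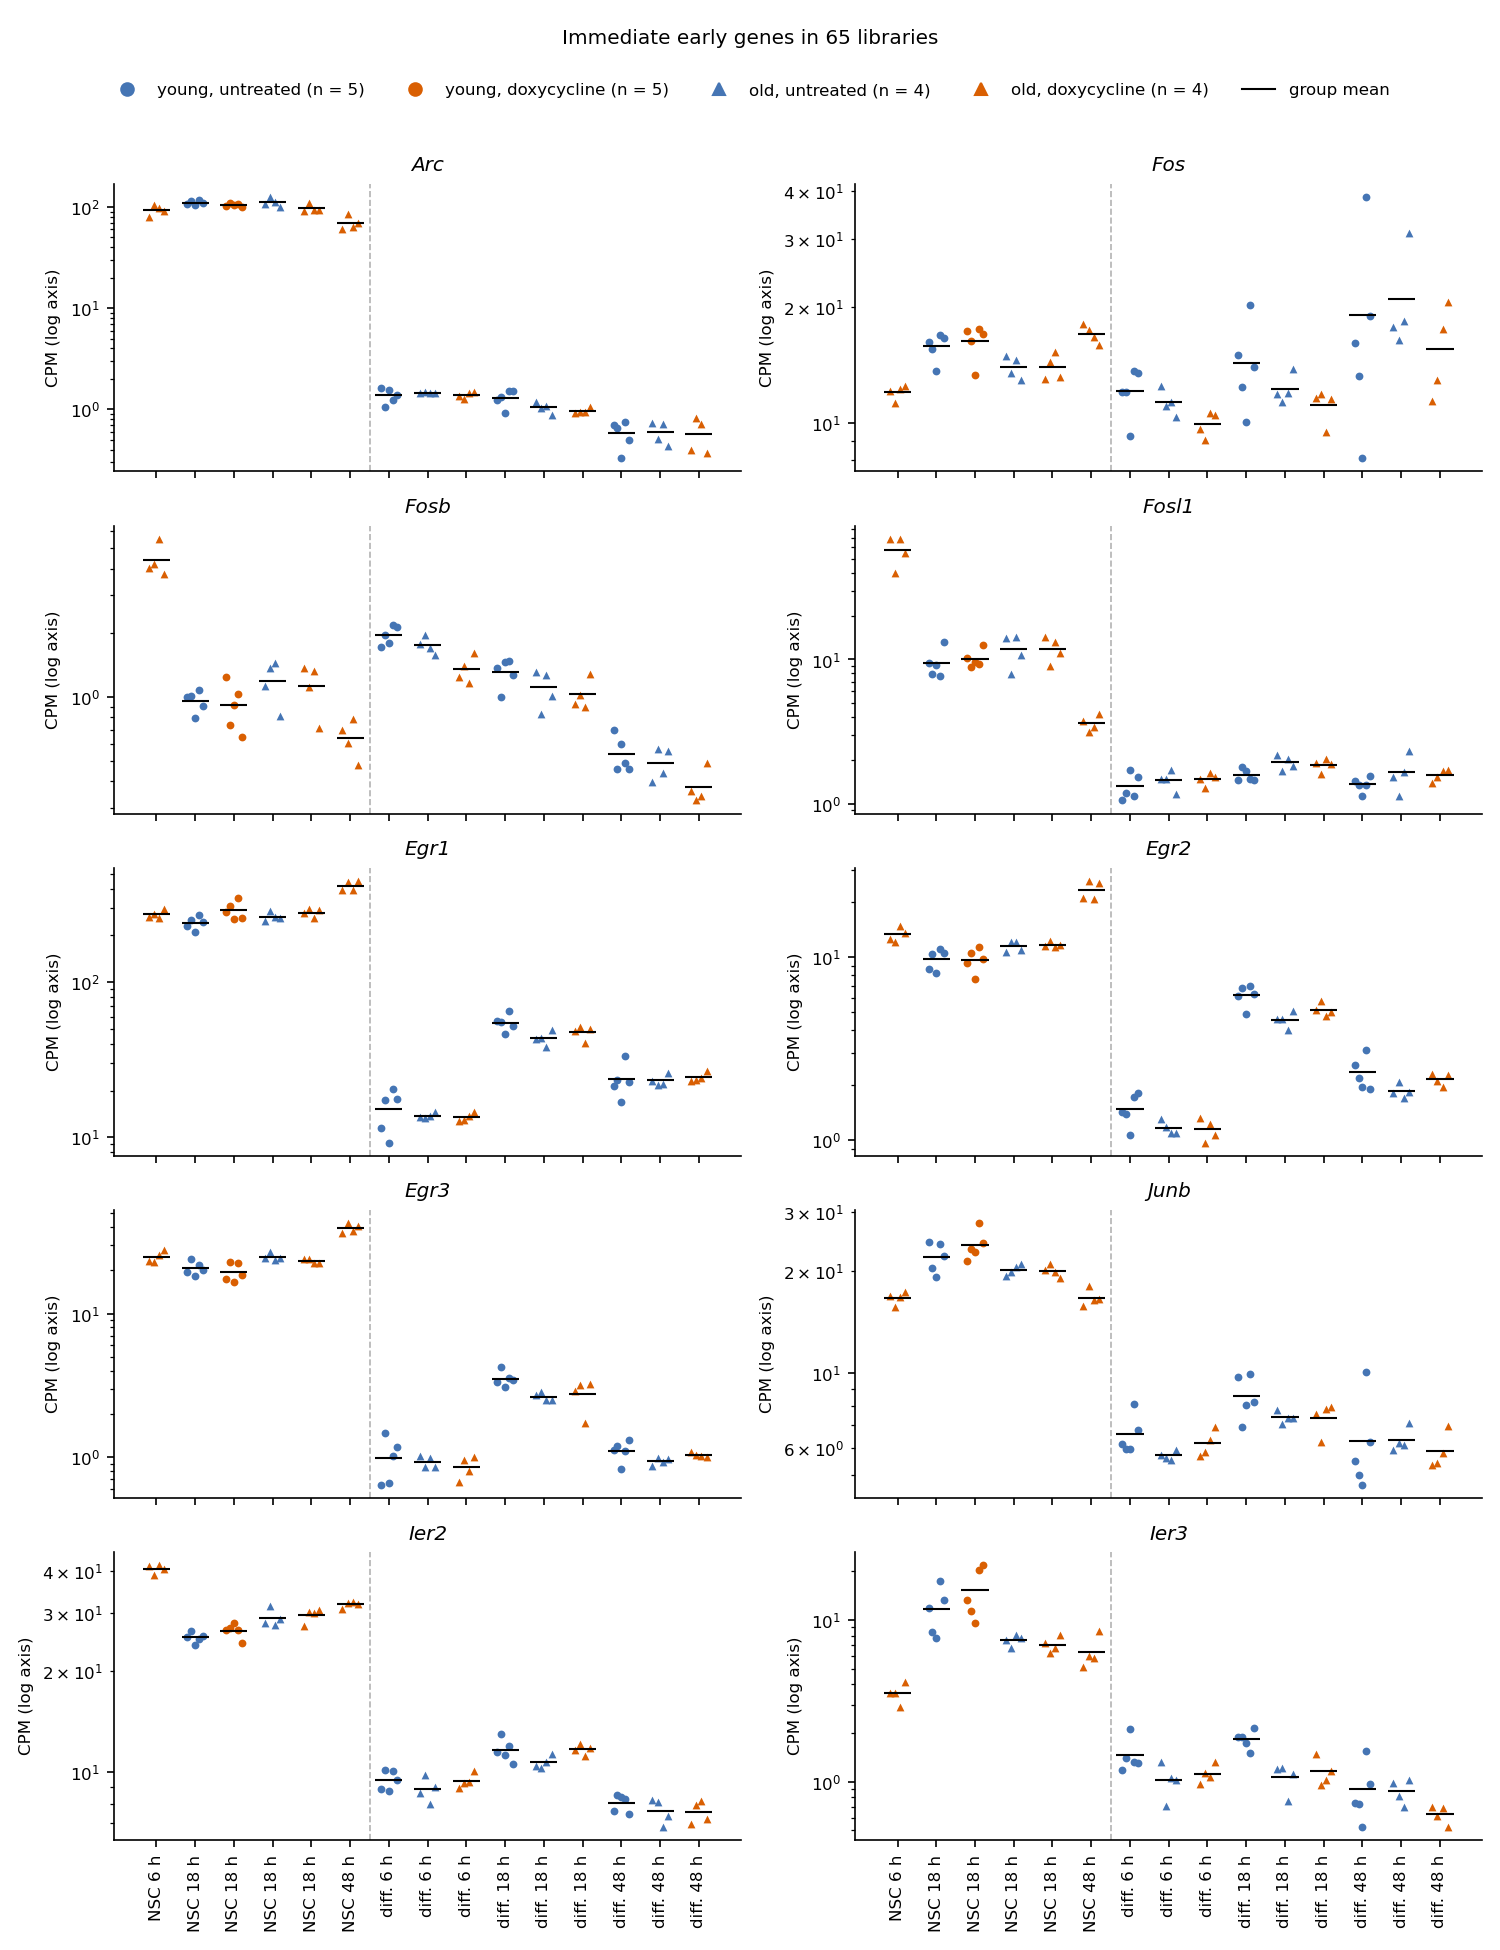
CPM of each member (vertical log axis) in every library, by medium and labelled hour. Circles are young and triangles old animals, blue is untreated, orange is doxycycline, and bars are group means. NSC medium is left of the dashed line. Arc separates by medium without overlap, while Fos stays between 8.10 and 38.7 CPM.

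Neighbouring groups in the order of levels mostly overlapped. For Egr1 the order fell into 5 blocks. Old cells with doxycycline at 48 h in NSC medium came highest (392 to 449.8 CPM), then the other NSC medium groups (212 to 348 CPM), differentiation at 18 h (38.3 to 64.7 CPM), at 48 h (17.0 to 33.4 CPM) and at 6 h (9.23 to 20.4 CPM). The first 4 blocks did not overlap, while the lowest young library at 48 h lay below the highest young one at 6 h. For Fos all 14 steps between neighbouring groups overlapped.

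Moving from NSC medium at 18 h to 6 h in differentiation medium changed all 10 members in cells of both ages. In young cells 9 fell and Fosb rose, beside 36.5% of 16949 genes lower and 38.4% higher (adjusted p under 0.05, edgeR quasi-likelihood test with Benjamini-Hochberg adjustment). In old cells the same 9 fell and Fosb rose, beside 37.4% of genes lower and 38.2% higher. The median log2 fold change of the members was -2.77 in young and -2.93 in old cells, beside 0.03 and 0.02 over all genes tested.

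Arc fell most. Its level in the 5 young animals was 108, 114, 105, 117 and 108 CPM in NSC medium, and 1.64, 1.07, 1.56, 1.25 and 1.402 CPM at 6 h of differentiation. In the 4 old animals it went from 107, 127, 112 and 100.2 CPM to 1.44, 1.49, 1.46 and 1.45 CPM. Every library in differentiation medium lay far below every library in NSC medium. The mean was 79.8-fold lower in young (log2 fold change -6.31 ± 0.09 SE, adjusted p = 3.63e-14, edgeR) and 76.2-fold lower in old cells (-6.24 ± 0.08, adjusted p = 3.09e-13).

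All 3 EGR genes fell. Egr1, the most abundant member, went from 230.0, 250.3, 212, 269 and 245 CPM to 11.4, 17.3, 9.23, 20.4 and 17.7 CPM in young cells. In old cells it went from 248, 287, 264 and 259.8 CPM to 13.4, 13.3, 13.7 and 14.5 CPM. Groups did not overlap, and the young libraries at 6 h were more spread (coefficient of variation 30.8%) than the old (3.94%), a difference that was not tested. The log2 fold change was -3.98 ± 0.21 in young (adjusted p = 4.19e-08, edgeR) and -4.26 ± 0.05 in old cells (adjusted p = 3.09e-13). Egr3 fell from 20.7 ± 2.27 to 0.992 ± 0.354 CPM in young cells (-4.36 ± 0.20) and from 24.7 ± 1.36 to 0.931 ± 0.091 CPM in old cells (-4.71 ± 0.08). Egr2 fell from 9.76 ± 1.27 to 1.49 ± 0.300 CPM in young cells, a 6.55-fold lower mean that is a smaller fall than those of Fosl1 (7.23-fold) and Ier3 (7.99-fold). In old cells Egr2 had a log2 fold change of -3.28 ± 0.09, there a larger fall than those of Fosl1 and Ier3. All adjusted p-values for these falls of Egr2 and Egr3 were at most 1.76e-09.

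Among the AP-1 members, Fosl1 fell from 9.52 ± 2.26 to 1.32 ± 0.284 CPM in young cells, a log2 fold change of -2.83 ± 0.18 (adjusted p = 1.01e-08, edgeR), and by 3.01 ± 0.21 on the log2 scale in old cells. Junb fell by 1.73 ± 0.10 and 1.82 ± 0.06 on the log2 scale in young and old cells. Fos moved little, from 15.8 ± 1.30 to 12.1 ± 1.77 CPM in young cells (-0.37 ± 0.10, adjusted p = 0.00357, edgeR) and by -0.30 ± 0.07 in old cells (adjusted p = 0.00306). These 2 calls of Fos were lost when all 15 groups were fitted together (adjusted p = 0.0768 and 0.222, edgeR).

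Fosb went the other way. It rose from 1.001, 1.01, 0.798, 1.08 and 0.901 CPM in young animals in NSC medium to 1.71, 1.96, 1.79, 2.18 and 2.12 CPM at 6 h of differentiation, and every young animal was higher. The log2 fold change was 1.04 ± 0.13 (adjusted p = 5.32e-06, edgeR). In old cells it was 0.56 ± 0.18 (adjusted p = 0.012), with 4 of 4 animals higher, and without old animal 1 the adjusted p was 0.0595.

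The 2 remaining members also fell. Ier3 went from 11.7 ± 3.86 to 1.47 ± 0.367 CPM in young cells (log2 fold change -2.98 ± 0.24, adjusted p = 4.38e-07, edgeR) and from 7.51 ± 0.580 to 1.03 ± 0.253 CPM in old cells (-2.85 ± 0.15). Ier2 kept more of its transcript, with 25.3 ± 0.895 CPM before and 9.44 ± 0.632 CPM after in young cells (-1.41 ± 0.06, adjusted p = 9.22e-11, edgeR). Of the 6 neuroblast and neuron markers 5 were tested, 4 of them higher and 1 lower in young cells, and their sum was larger at 6 h (70.0 to 91.6 CPM summed in young cells, against 23.6 to 38.0 CPM), while the summed neural stem cell and astrocyte markers lay at 3346 to 3710 CPM against 3592 to 4217 CPM. Of 5 oligodendrocyte lineage markers tested 4 were higher and none lower. Beside these counts, 38.4% of all genes were higher and 36.5% lower in young cells. The summed oligodendrocyte lineage markers overlapped in young cells, at 931 to 1049 CPM at 6 h against 865 to 1033.5 CPM in NSC medium. The part of cell composition in the members' change was not tested.

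**Figure D2:**
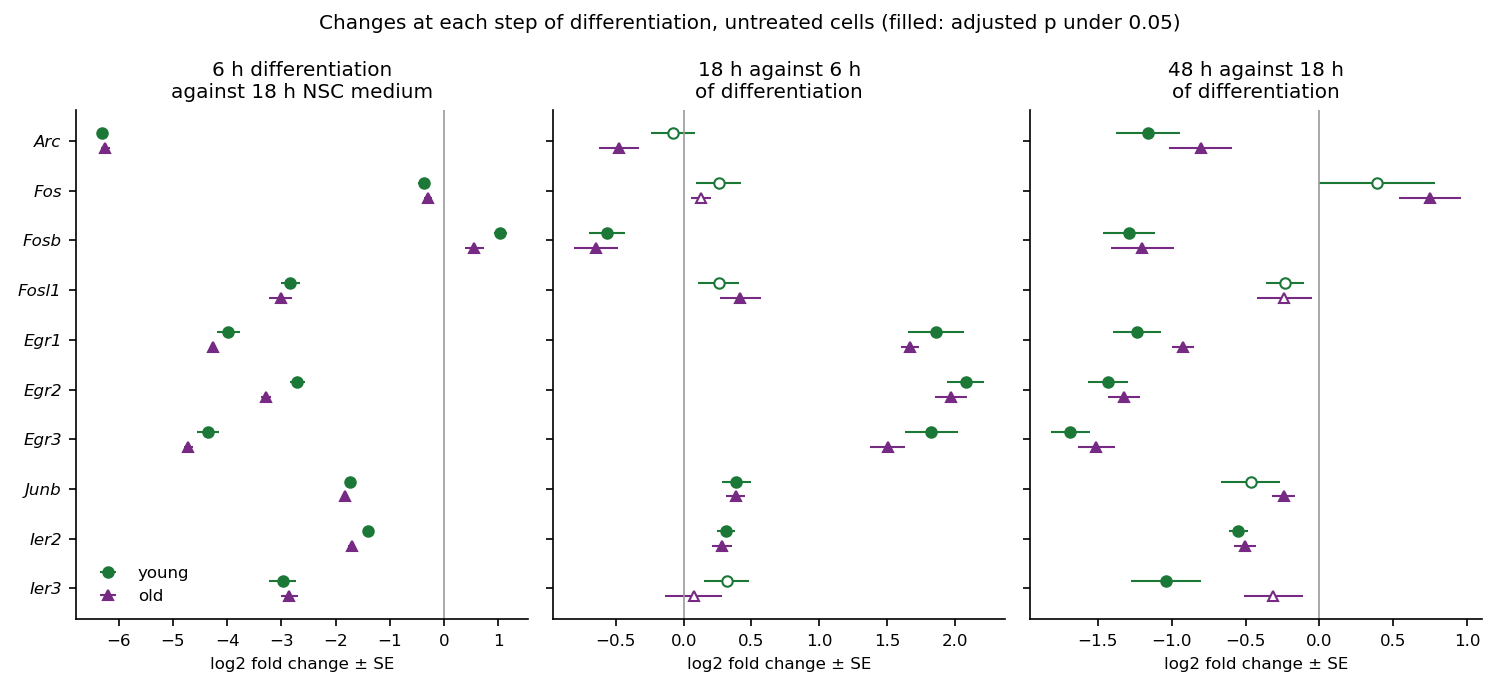
Log2 fold change with its SE (horizontal axis) of each member at 3 steps of differentiation in untreated young (circles, n = 5) and old cells (triangles, n = 4). Filled symbols have adjusted p under 0.05. The EGR genes fall by 6 h, rise by 18 h and fall again by 48 h, while Arc does not rise.

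Other genes of the pathway moved in part with the members at 6 h. Of all genes, 36.5% were lower and 38.4% higher in young cells, and 37.4% lower and 38.2% higher in old cells. Of 17 other immediate early transcription factors, 12 were lower and 4 higher in young cells, and 12 lower and 3 higher in old cells. Klf10, a growth-restraining zinc finger factor, fell by 3.25 ± 0.09 on the log2 scale in young cells and Jun by 1.99 ± 0.09, but Jund, the JUN family member often linked to quiescence, rose by 0.89 ± 0.09 and Ier5 by 0.92 ± 0.05. Of 20 other immediate early effectors, 13 were lower and 6 higher in young cells. The antiproliferative gene Btg2 rose by 2.60 ± 0.07, to 254 ± 23.2 CPM, and the growth arrest gene Gadd45b by 2.96 ± 0.10. The pseudokinase gene Trib1 fell by 2.63 ± 0.19. The median log2 fold change was -1.09 over the transcription factors and -0.62 over the effectors in young cells.

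Regulators moved in both directions. Of 17 regulators of immediate early promoters, 9 were lower and 5 higher in young cells (median log2 fold change -0.37), and of 20 EGF and FGF receptors and ERK cascade genes 10 were lower and 5 higher (median -0.13), beside the 36.5% of all genes lower and 38.4% higher. Nab2, a corepressor of EGR proteins and itself an EGR target, fell by 2.46 ± 0.04 on the log2 scale in young cells, Elk3 by 1.30 ± 0.08 and Srf by 1.09 ± 0.04. The receptor gene Egfr rose by 0.93 ± 0.06, Fgfr3 rose by 0.77 ± 0.09 and Fgfr1 fell by 0.90 ± 0.05. Of 12 listed AP-1 target genes 8 were tested at this step. In young cells 7 were lower and none higher, and the log2 fold change was -3.78 ± 0.25 for Ccnd1 (cyclin D1) and -3.71 ± 0.21 for the EGF receptor ligand gene Hbegf. In old cells all 8 were lower. Adjusted p-values of the genes named in this and the preceding paragraph were at most 7.64e-06 in young cells.

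From 6 to 18 h of differentiation, the EGR genes came back in part. In young cells 5 members rose (Egr1, Egr2, Egr3, Junb and Ier2) and Fosb fell, beside 34% of genes higher and 32.4% lower. In old cells the same 5 and Fosl1 rose while Fosb and Arc fell, beside 34.1% of genes higher and 33.6% lower. Egr2 had the largest change, from 1.43, 1.39, 1.07, 1.73 and 1.82 CPM to 6.17, 6.82, 4.93, 7.002 and 6.34 CPM in young animals. All young libraries at 18 h lay above all at 6 h (log2 fold change 2.08 ± 0.14, adjusted p = 6.32e-09, edgeR), and in old cells the change was 1.97 ± 0.12 (adjusted p = 6.3e-09). Egr1 rose by 1.86 ± 0.21 in young and 1.67 ± 0.07 in old cells, and Egr3 to 3.55 and 2.83 times its 6 h mean.

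The rebound stayed under the level in NSC medium. At the same labelled 18 h, Egr2 was 1.56-fold lower in differentiation medium than in NSC medium in young cells (log2 fold change -0.60 ± 0.10, adjusted p = 9.1e-05, edgeR) and 2.51-fold lower in old cells (-1.29 ± 0.09). Egr1 had log2 fold changes of -2.10 ± 0.08 and -2.57 ± 0.07, and Egr3 was 5.88-fold and 9.37-fold lower. In this comparison 8 members were lower and Fosb higher in young cells, beside 40.3% of genes lower and 42.3% higher. In old cells 8 were lower and none higher, beside 40.5% of genes lower. The Fosb difference in young cells was 0.50 ± 0.15 (adjusted p = 0.00743), and in old cells -0.07 ± 0.22 (adjusted p = 0.778).

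The smaller changes from 6 to 18 h were as follows. Junb rose by 0.39 ± 0.11 in young and 0.38 ± 0.07 in old cells, and Ier2 by 0.31 ± 0.07 and 0.28 ± 0.07. Fosb, highest of the differentiation times at 6 h, fell by 0.56 ± 0.13 and 0.65 ± 0.16. Fos had a log2 fold change of 0.26 ± 0.17 in young cells (adjusted p = 0.196, edgeR), higher in 5 of 5 animals, and with animals as blocks it was called (adjusted p = 0.0178, 68% of genes called). The Fosl1 call in old cells (0.42 ± 0.15, adjusted p = 0.0257) was lost without old animal 1 (adjusted p = 0.11) or old animal 4 (0.0877), and that of Arc (-0.48 ± 0.14, adjusted p = 0.0101) without old animal 4 (0.059). These fits had no animal term, and with animals as blocks and no animal left out both members were also called.

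Between 18 and 48 h most members fell again. In young cells 7 fell and none rose, beside 29.2% of genes lower. In old cells 7 fell and Fos rose, beside 28.5% of genes lower and 28% higher. Egr1 went from 56.5, 54.9, 46.4, 64.7 and 51.8 CPM to 21.6, 23.3, 17.0, 33.4 and 22.8 CPM in young animals (log2 fold change -1.24 ± 0.16, adjusted p = 1.18e-04, edgeR), without overlap. Egr3 fell by 1.69 ± 0.13 in young and 1.51 ± 0.13 in old cells, Egr2 by 1.43 ± 0.14 and 1.32 ± 0.11, and Fosb by 1.29 ± 0.18 in young cells, with a 2.27-fold lower mean in old cells. Arc fell further to 0.587 ± 0.172 CPM in young and 0.602 ± 0.152 CPM in old cells. Junb had a log2 fold change of -0.47 ± 0.20 in young cells (adjusted p = 0.0704), but -0.64 without young animal 4 (adjusted p = 4.66e-04) and -0.50 ± 0.12 with animals as blocks (adjusted p = 0.00646, 62.6% of genes called). In old cells the Junb call (-0.24 ± 0.08, adjusted p = 0.0155) was lost without old animal 1 (0.102) or 3 (0.0768).

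Fos parted from the rest at 48 h. In old animals it went from 11.9, 11.4, 11.98 and 13.8 CPM to 17.8, 16.5, 18.4 and 31.1 CPM, every library at 48 h being above every one at 18 h. The log2 fold change was 0.75 ± 0.21 (adjusted p = 0.0187, edgeR), with adjusted p = 0.0714 without old animal 1 and 0.0565 without old animal 3. In young animals it went from 14.99, 12.4, 10.1, 20.2 and 13.995 CPM to 16.2, 13.3, 8.10, 38.7 and 19.0 CPM, so 4 were higher and animal 3 was lower. The young log2 fold change of 0.39 ± 0.40 did not pass (adjusted p = 0.431). Whether the steps differed between ages was tested directly. For each of the 3 steps no member had an adjusted p under 0.05 for the interaction of age and step in edgeR (0.0454%, 0% and 0% of genes called). DESeq2 and limma called none either, and 3, 0 and 1 members had an unadjusted p under 0.05.

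Young animals kept their rank for some members. Animal 4 had the highest Fos and the highest Egr1 of the young libraries in all 5 young groups, and animal 3 the lowest of both in all 5. For Egr2 animal 4 was highest and animal 3 lowest in 4 of the 5 groups. This pattern was noticed in the data and is given as a description.

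Age differences within a condition were small. In untreated cells at 18 h in NSC medium, where 3.09% of genes were higher in old cells, Ier2 alone was called by edgeR. DESeq2 called Ier2 and Egr3 and limma none, and Fos, Egr2, Egr3, Ier2 and Ier3 had an unadjusted p under 0.05 in edgeR. The level of Ier2 was 25.4, 26.5, 24.0, 25.1 and 25.5 CPM in young animals and 27.9, 31.3, 27.5 and 28.7 CPM in old ones, without overlap (log2 fold change 0.18 ± 0.05, adjusted p = 0.049, edgeR). With sex as a covariate the adjusted p was 0.0671, and leaving out any of 7 of the 9 animals took it above 0.05. Ier3 tended the other way without passing, at 11.8, 8.48, 7.78, 17.3 and 13.2 CPM in young and 7.57, 6.70, 8.08 and 7.69 CPM in old animals (-0.66 ± 0.22, adjusted p = 0.116). Here the old libraries lay within or below the lower part of the young range.

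At 6 h of differentiation no member was called (1.43% of genes called by edgeR), none by DESeq2, and Junb and Ier3 had an unadjusted p under 0.05. The clearest age differences stood at 18 h of differentiation, where 2.34% of genes were lower in old cells and 3 of the 10 members were lower in old cells. Ier3 was at 1.88, 1.90, 1.73, 1.498 and 2.15 CPM in young and 1.19, 1.22, 0.764 and 1.11 CPM in old animals, without overlap (log2 fold change -0.75 ± 0.16, adjusted p = 0.0193, edgeR). These levels rest on 116 to 175 counts in young and 44 to 121 counts in old libraries. Egr3 was at 3.32, 4.21, 3.07, 3.56 and 3.43 CPM in young and 2.71, 2.83, 2.50 and 2.49 CPM in old animals, also without overlap (-0.41 ± 0.11, adjusted p = 0.0439). Egr2 differed by -0.43 ± 0.10 (adjusted p = 0.026), with the highest old library above the lowest young one. Egr1 was lower in the same direction (-0.32 ± 0.09) with adjusted p = 0.0809, and 0.0475 with sex as a covariate (4.46% of genes called). In that same fit with sex Egr3 was not called (adjusted p = 0.0598), and DESeq2 called Egr1 beside the other 3 members.

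These calls rest on few animals. Egr3 lost its call when any of 8 of the 9 animals was left out, Egr2 with 5 and Ier3 with 2 of them. Egr3 was also not called by limma (0.0518) or in one fit over all groups (0.0555), nor Ier3 in the latter (0.0505). With old animal 3 left out none of the 3 remained (Ier3 at adjusted p = 0.0652, Egr2 at 0.103 and Egr3 at 0.128, edgeR). The summed neuroblast and neuron markers were 106 to 158 CPM in old and 81.1 to 112 CPM in young cells at this time, and the summed oligodendrocyte lineage markers 1420.4 to 1712 CPM and 1112 to 1328 CPM. Their part in the result was not tested. At 48 h no member was called (10.6% of genes called), none by DESeq2, and Egr2 alone had an unadjusted p under 0.05 (-0.34 ± 0.15).

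**Figure D3:**
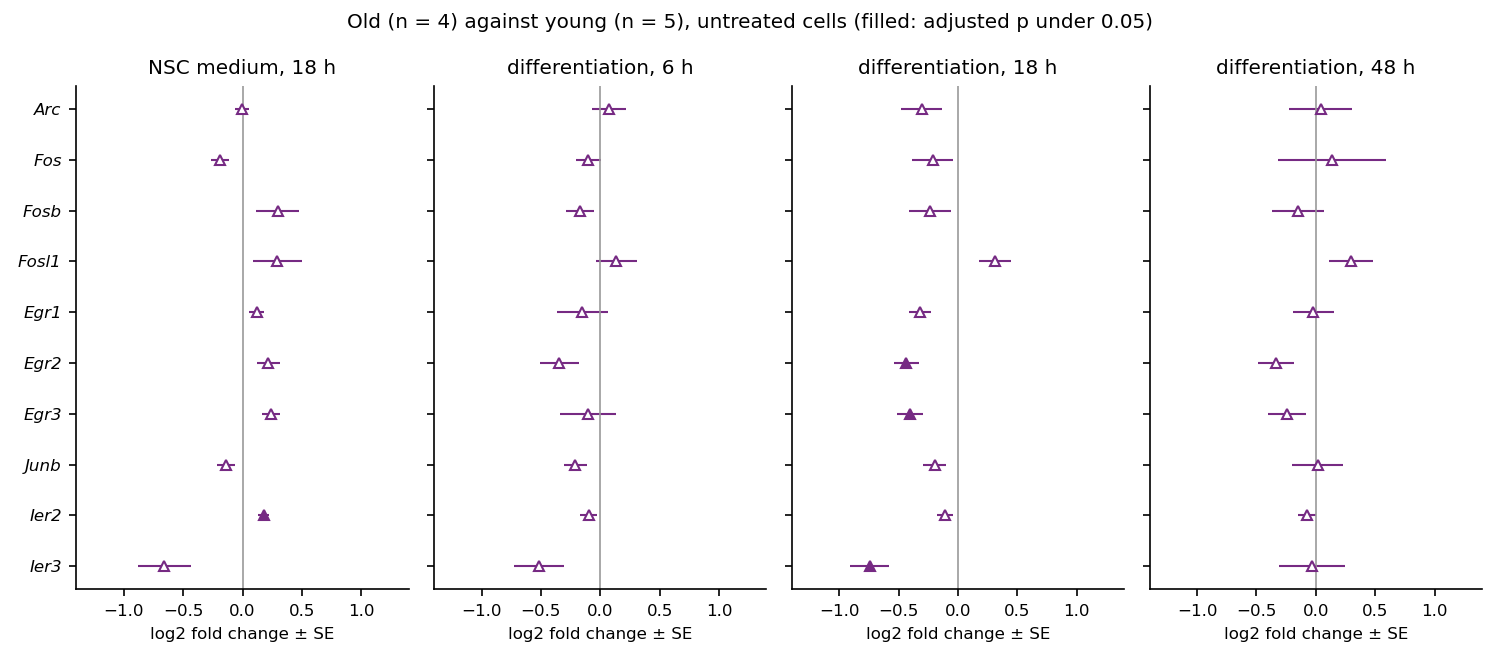
Log2 fold change of old against young untreated cells with its SE (horizontal axis) for each member at 4 conditions. Filled symbols have adjusted p under 0.05. Egr2, Egr3 and Ier3 lie below 0 at 18 h of differentiation, and Ier2 above 0 in NSC medium.

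In NSC medium with doxycycline, sampled in old cells at 3 times, members took different courses. At 6 h, against 18 h, 3 members were higher (Fosl1, Fosb and Ier2) and 3 lower (Ier3, Junb and Fos), beside 30.7% of genes higher and 30.6% lower. Fosl1 stood at 68.9, 39.6, 68.2 and 55.2 CPM at 6 h, at 14.3, 8.99, 13.1 and 11.1 CPM at 18 h, and at 3.73, 3.12, 3.42 and 4.15 CPM at 48 h. The 3 times did not overlap, and the animals had the same order at 6 h and 18 h. The log2 fold change was 2.27 ± 0.22 at 6 h (adjusted p = 5.16e-05, edgeR) and -1.71 ± 0.15 at 48 h (adjusted p = 8.59e-06), both against 18 h.

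Fosb had the same shape at a lower level, from 4.38 ± 0.785 CPM at 6 h through 1.13 ± 0.297 CPM at 18 h to 0.641 ± 0.132 CPM at 48 h. The 6 h difference was 1.94 ± 0.20 (adjusted p = 1.29e-05, edgeR). The 48 h difference was -0.80 ± 0.24 (adjusted p = 0.0136), lost without old animal 1 (0.0551) or 2 (0.055). Ier2 was highest at 6 h (40.6 ± 1.22 CPM against 29.5 ± 1.46 CPM, log2 fold change 0.44 ± 0.05, adjusted p = 1.16e-05). Ier3 started low, at 3.52 ± 0.502 CPM against 7.05 ± 0.771 CPM (-1.02 ± 0.12, adjusted p = 2.64e-05). With animals as blocks Egr2 (0.16, adjusted p = 0.0405) and Arc (-0.08, adjusted p = 0.047) were also called, as were 67.9% of genes. The Fos call (-0.24 ± 0.07, adjusted p = 0.0101) was lost without old animal 2 (0.0567) or 3 (0.053).

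The EGR genes climbed late. At 48 h against 18 h, 5 members were higher (Egr1, Egr2, Egr3, Fos and Ier2) and 4 lower (Arc, Fosb, Fosl1 and Junb), beside 26% of genes higher and 26.3% lower. Egr1 went from 278, 296, 261 and 289.9 CPM to 392, 443, 396 and 449.8 CPM, higher in 4 of 4 animals and without overlap (log2 fold change 0.59 ± 0.05, adjusted p = 4.33e-06, edgeR). Egr2 rose from 11.7 ± 0.393 to 23.3 ± 2.79 CPM (1.01 ± 0.08, adjusted p = 1.36e-06), and Egr3 rose from 23.3 ± 0.826 to 39.3 ± 2.91 CPM (0.76 ± 0.05, adjusted p = 6.59e-07). Arc fell by 0.46 ± 0.11 over the same interval (adjusted p = 0.00655) and Junb by 0.25 ± 0.06 (adjusted p = 0.00252), while Fos rose by 0.30 ± 0.07 (adjusted p = 0.00274). The Ier2 call (0.12 ± 0.04, adjusted p = 0.0313) was lost whichever old animal was left out. Both arms held doxycycline, so time in culture and time on doxycycline cannot be told apart.

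**Figure D4:**
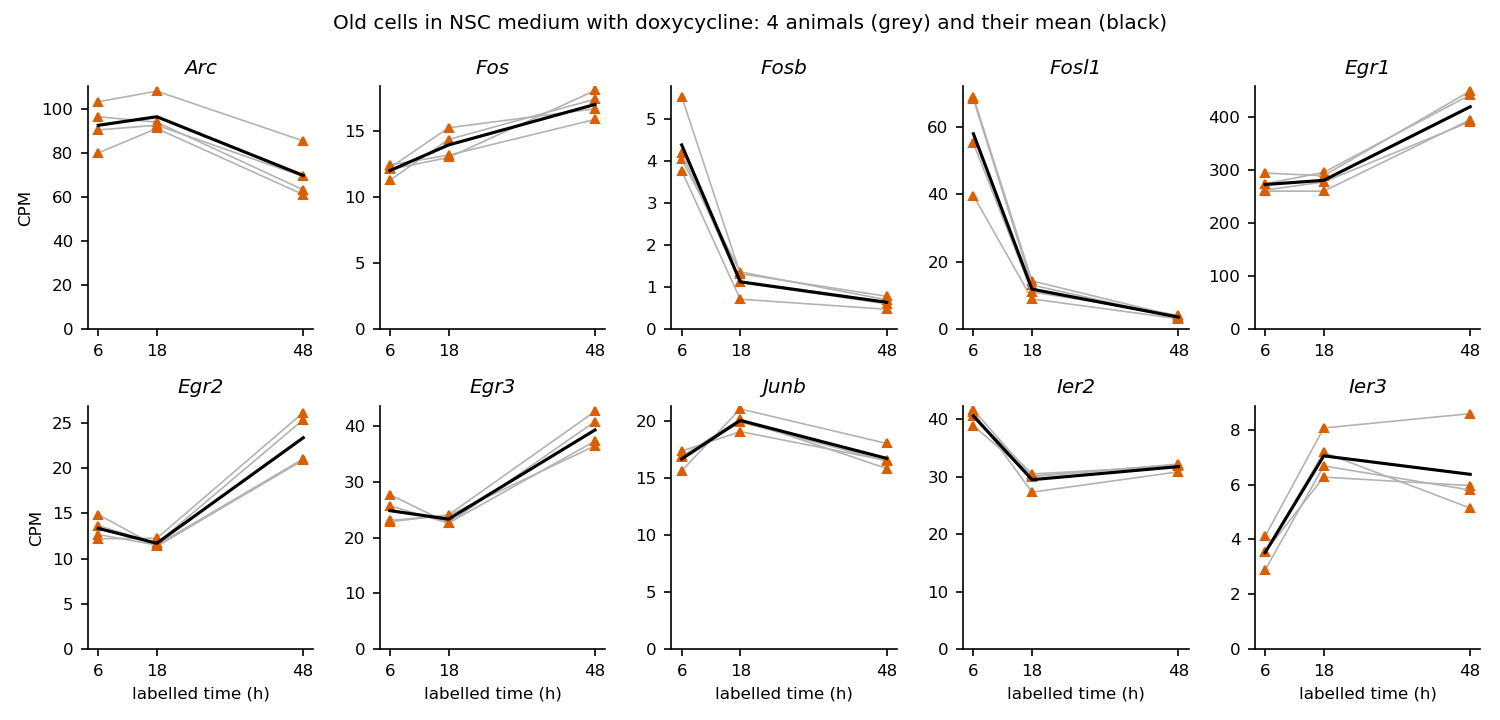
CPM (vertical axis, from 0) of each member in old cells in NSC medium with doxycycline at labelled hours 6, 18 and 48. Grey lines join the libraries of an animal (n = 4) and black lines the means. Fosl1 and Fosb drop from 6 h on, while Egr1, Egr2 and Egr3 climb after 18 h.

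Summed neural stem cell and astrocyte markers lay at 2668 to 2748 CPM at 6 h and 3493 to 3696 CPM at 18 h, and oligodendrocyte lineage markers at 512 to 585 CPM and 884 to 949 CPM. Their part in the members' course was not tested. Among other immediate early genes and AP-1 targets, more were higher than lower at 6 h, beside 30.7% of all genes higher and 30.6% lower. Of 17 other immediate early transcription factors 12 were higher and 3 lower, of 20 effectors 15 higher and 5 lower, and of the 10 AP-1 target genes tested 7 higher and 2 lower. The median log2 fold change was 0.57, 0.40 and 1.39 in these lists, beside 0.00 over the 10 members and over all genes. Nfil3 was higher by 2.96 ± 0.10, Atf3, a stress-induced factor that pairs with JUN proteins, by 2.27 ± 0.08, and Fosl2, the closest relative of Fosl1, by 2.11 ± 0.14. The matricellular gene Ccn1 was higher by 2.29 ± 0.09, Hbegf by 2.60 ± 0.23, the urokinase receptor gene Plaur by 2.12 ± 0.26 and the protease inhibitor gene Timp1 by 1.97 ± 0.19. Adjusted p-values of these genes were at most 1.72e-04 (edgeR).

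At matched hours with doxycycline in both media, old cells had lower members in differentiation medium throughout. At 6 h all 10 were lower (39.3% of genes lower), at 18 h 9 (40%) and at 48 h 9 (37.1%). At 6 h this includes Fosb, at 1.23, 1.39, 1.16 and 1.60 CPM in differentiation medium and 4.04, 4.19, 5.53 and 3.77 CPM in NSC medium (log2 fold change -1.67 ± 0.15, adjusted p = 6.29e-07, edgeR). The direction is opposite to that in untreated cells against the 18 h NSC group. The comparisons differ in the hour of the NSC group and in treatment. In old cells at 18 h in NSC medium, Fosb was at 1.13 ± 0.297 CPM with doxycycline and 1.19 ± 0.284 CPM without. No untreated NSC group at 6 h was analysed, and the part of hour and of treatment was not tested. Fosl1 was 39.1-fold lower at 6 h (-5.27 ± 0.22), 6.40-fold at 18 h (-2.64 ± 0.15) and 2.29-fold at 48 h (-1.17 ± 0.12). Arc was 66.8-fold, 101-fold and 121-fold lower at the 3 times. Not called were Fosb at 18 h (-0.09 ± 0.22, adjusted p = 0.71) and Fos at 48 h (-0.10 ± 0.17, adjusted p = 0.619). The Fosb call at 48 h (-0.73 ± 0.24, adjusted p = 0.016) was lost without old animal 1 (0.0745) or 3 (0.106).

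Doxycycline against untreated cells of the same age, time and medium gave no call among the members in any of the 5 comparisons in the edgeR fit without an animal term. That fit called 0.018% of genes in old and 0.0361% in young cells at 18 h in NSC medium, and 0.0294%, 0.0118% and 0.0296% at 6, 18 and 48 h of differentiation in old cells. DESeq2 and limma called no member, and 1 or 2 members per comparison had an unadjusted p under 0.05. Libraries with the same number come from the same animal, and with animals as blocks 11.2% of genes were called in old and 13.6% in young cells at 18 h in NSC medium, and 3.67%, 0.883% and 4.15% at 6, 18 and 48 h of differentiation. In these blocked fits 2, 2, 0, 0 and 1 members were called.

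Only with animals as blocks was Egr1 called higher with doxycycline at 18 h in NSC medium. In the 5 young animals its level was 285, 311, 255, 348 and 260.3 CPM with doxycycline and 230.0, 250.3, 212, 269 and 245 CPM without. It was higher in 5 of 5 animals although the groups overlapped (log2 fold change 0.27 ± 0.03, adjusted p = 1.46e-04, edgeR with animals as blocks, against 0.276 without). In old cells it was 281 ± 15.6 against 265 ± 16.1 CPM, higher in 3 of 4 animals (0.10 ± 0.03, adjusted p = 0.026). Leaving out each young animal kept the young call each time (adjusted p from 2.20e-06 to 0.00271), whereas the old call remained only without old animal 3 (adjusted p up to 0.151 otherwise).

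Arc was lower with doxycycline in every animal of both ages at 18 h in NSC medium. The old animals had 91.2, 108, 94.1 and 92.7 CPM with doxycycline and 107, 127, 112 and 100.2 CPM without (log2 fold change -0.19 ± 0.02, adjusted p = 5.55e-06, edgeR with animals as blocks). The call held without each old animal in turn (adjusted p at most 4.52e-04). In young cells the difference was -0.08 ± 0.03, lower in 5 of 5 animals, with adjusted p = 0.0767. The change in the log2 value differed between ages by -0.12 ± 0.04 in a direct test, which did not pass (adjusted p = 0.0801).

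Ier3 was higher with doxycycline in young cells at 18 h in NSC medium, at 13.3, 11.4, 9.52, 20.4 and 21.8 CPM with doxycycline and 11.8, 8.48, 7.78, 17.3 and 13.2 CPM without. It was higher in 5 of 5 animals (log2 fold change 0.37 ± 0.07, adjusted p = 0.00564, edgeR with animals as blocks), and remained called without each animal in turn (adjusted p at most 0.0332). In old cells the difference was -0.08 ± 0.07 (adjusted p = 0.493). The interaction of age and doxycycline was -0.46 ± 0.11 (adjusted p = 0.0331, edgeR with animals as blocks, 3.43% of genes called), and 0.751 without the animal term. Fos at 48 h of differentiation was lower with doxycycline in 4 of 4 old animals (-0.43 ± 0.09, adjusted p = 0.0409 with animals as blocks). That call stood only without old animal 3 when single animals were left out (adjusted p up to 0.184).

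**Figure D5:**
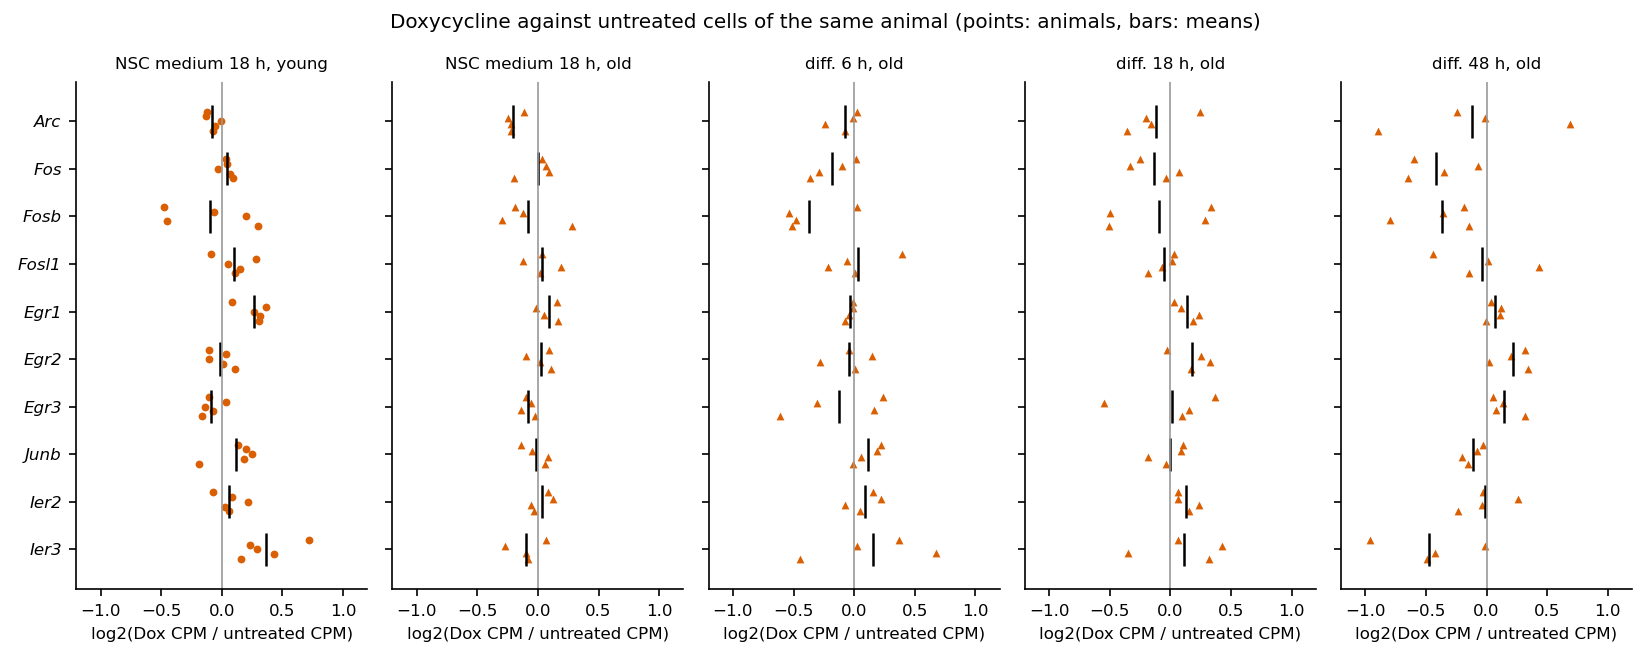
Log2 ratio of CPM with doxycycline to CPM without, in cells of the same animal (horizontal axis), for each member in 5 conditions. Points are animals (5 young or 4 old) and bars their means. In NSC medium every animal lies below 0 for Arc, and every young animal above 0 for Egr1 and Ier3.

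Old cells with doxycycline were also set against untreated young cells, the comparison that bears on whether doxycycline brings old cells to the young level. This comparison shares libraries with those of age and of doxycycline. At 18 h in NSC medium Ier2 was higher (log2 fold change 0.22 ± 0.04, adjusted p = 0.0153, edgeR) and Arc lower (-0.20 ± 0.05, adjusted p = 0.0461), beside 2.58% of genes higher and 3.13% lower. The Arc call was lost when any of 7 of the 9 animals was left out and with sex as a covariate (adjusted p = 0.0721), and the Ier2 call without old animal 3 (0.0555) or 4 (0.0512). For Ier2 the difference from untreated young cells was 0.18 ± 0.05 without and 0.22 ± 0.04 with doxycycline, and for Arc 0.00 ± 0.06 and -0.20 ± 0.05. At 18 h of differentiation Ier3 was lower (-0.65 ± 0.16, adjusted p = 0.0209, 3.61% of genes lower), against -0.75 ± 0.16 in untreated old cells. This call was lost without old animal 2, 3 or 4 or young animal 1 (adjusted p 0.0502 to 0.0764). Egr2 was at -0.27 ± 0.10 (adjusted p = 0.114) against -0.43 ± 0.10, and Egr3 at -0.36 ± 0.16 (adjusted p = 0.211) against -0.41 ± 0.11. For doxycycline against untreated old cells at this time, neither Egr2 nor Egr3 passed (0.17 ± 0.08, adjusted p = 0.395, and 0.04 ± 0.13, adjusted p = 0.94, with animals as blocks). No member was called at 6 or 48 h of differentiation (2.44% and 18.7% of genes called). DESeq2 called Fosb at 6 h, and 3 and 1 members had an unadjusted p under 0.05 in edgeR.

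The genes whose group means followed each member most closely were found by Pearson correlation of log2(CPM + 0.5) over the 15 groups among 14126 genes. These correlations are descriptive, since the groups share animals and are dominated by the change of medium. Arc was followed by Trib1 (r = 0.998), Myo9b and Spry4, and Egr1 by Egr3 (0.991), Smad3 and Usp51. Egr3 and Ier2 both had Nab2 at the top (0.992 and 0.990), while Egr2 had Dusp18 (0.987), Egr1 and Egr4. Junb was closest to Prokr1 (0.991), Ier3 to Adgrl2 (0.987), Fosl1 to Eif3g (0.993) and Fosb to Emp1 (0.958). Fos stood apart, with no gene above Gm16958 (0.908), and its own correlation with Fosb was -0.65.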

How the data were processed

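RNA-seq counts per gene of 65 libraries of primary mouse neural stem cells were used. The deposited counts are whole numbers per Ensembl gene. Per the labels' protocols, 500 ng of total RNA went into a stranded mRNA kit and libraries were sequenced as paired 150-base reads. Per the submitters' processing notes, which name tools without their order, mm10, STAR 2.7.10b, Trim Galore 0.6.6, Subread, SAMtools and DESeq2 1.40.1 were used. A second deposited table holds the authors' variance-stabilised values on a log2 scale, used here only in an alternative. The strand setting of the counting is not given in the sources used here. Nor is it given whether both mates of a pair were counted, so counts may exceed the number of read pairs. Values of 2 were far more frequent than values of 1 (75644 against 19963), so halving the counts was among the alternatives.

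Symbols were joined by Ensembl identifier through GENCODE (30934 of 31057 features named). Each comparison was fitted with edgeR 4.0.16 (R 4.3.3) on the 2 groups compared: TMM scaling, filterByExpr with a minimum count of 10, the robust quasi-likelihood test, and Benjamini-Hochberg adjustment over all genes tested, called at adjusted p under 0.05. The standard error of a log2 fold change is its size divided by the square root of the F statistic. There were 26 comparisons and 5 interactions. The fit was tested on simulated counts. Per the labels, samples of an age with the same replicate number come from the same animal. Over 11823 genes, deviations from the group means correlated at a median of 0.655 within animals (77 pairs of libraries, lowest 0.239) and -0.372 between animals (256 pairs), so fits with animals as blocks are given wherever they change a call. Deviations within a group cancel out, which by itself pulls the correlation between animals to negative values, and libraries recur across pairs. Animals are the replicates, and nothing in the labels tells of repeat cultures of an animal.

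Alternatives were DESeq2 1.42.0, RLE scaling, no low-count filter, limma 3.58.1 on variance-stabilised counts, sex as a covariate, all groups in one fit, animals as blocks and leaving out each animal. Unless blocks are named, animals were left out in the fit without an animal term. The blocked fits without each animal were run only for doxycycline against untreated cells, and were added after seeing the data. Named genes of other lists are the up to 3 per list and direction with the largest change among called genes averaging 5 CPM or more in the 6 h differentiation comparisons and in the 6 h against 18 h comparison in NSC medium. For the correlations the 3 closest genes averaging 1 CPM or more were taken. The members and all lists were chosen with earlier results of these data known. Promoter windows were matched by symbol (5 of 10 members).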

Additional observations from a re-analysis of the deposited data

Results flagged for a closer look

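In 7 of 150 sets (10 members in 15 groups) the highest or lowest library lay far from the others of its group by Dixon's criterion, where chance flags about 1 in 20 sets. Arc was highest in old animal 2 with doxycycline at 18 h in NSC medium (108 CPM, the others 91.2 to 94.1 CPM) and in old animal 4 with doxycycline at 18 h of differentiation (1.05 CPM, the others 0.923 to 0.936 CPM). Fos was lowest in young animal 3 with doxycycline in NSC medium (13.4 CPM, the others 16.3 to 17.5 CPM) and in old animal 3 with doxycycline at 18 h of differentiation (9.50 CPM, the others 11.6 to 11.9 CPM). It was highest in untreated old animal 4 at 48 h of differentiation (31.1 CPM, the others 16.5 to 18.4 CPM). Ier2 was lowest in old animal 1 with doxycycline at 18 h in NSC medium (27.3 CPM, the others 30.0 to 30.5 CPM). Ier3 was highest in untreated young animal 3 at 6 h of differentiation (2.11 CPM, the others 1.19 to 1.41 CPM).

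The effect of doxycycline on Ier3 in NSC medium differed between ages in the fit with animals as blocks, by -0.46 on the log2 scale (old minus young, SE 0.11, adjusted p = 0.0331, edgeR). It did not pass without the animal term (adjusted p = 0.751).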

How the results depend on the processing

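Of 310 member fold changes (10 members in 31 comparisons and interactions), 54 changed sign under at least 1 alternative. None of these sign changes was called in either fit, and the largest such fold change was 0.30 on the log2 scale in size. RLE scaling and halved counts changed no call of a member. With animals as blocks (the replicate block), members called went from 0 to 2 for doxycycline in old and in young NSC medium, to 1 at 48 h of differentiation and to 1 for the interaction of age and doxycycline, and no count fell. Over all genes, calls for doxycycline went from 3 to 1863, 6 to 2260, 5 to 625, 2 to 150 and 5 to 701 with the block, and were 114, 236, 91, 45 and 90 in DESeq2. Without single animals these 3 doxycycline counts stayed at 0 in the fits without the block, and were 1 to 2, 2 to 3 and 0 to 1 in the fits with it. The age count at 18 h in NSC medium (1) was 2 in DESeq2, 0 without the low-count filter, 0 in limma, 0 with sex as a covariate, 2 in one fit over all groups, and 0 to 2 without single animals. The age count at 18 h of differentiation (3) was 1 in the fit over all groups and 0 to 4 without single animals. For old cells with doxycycline against untreated young cells, the count in NSC medium (2) was 4 in DESeq2, 1 with sex as a covariate and 0 to 2 without single animals. At 6 h of differentiation (0) it was 1 in DESeq2 and 0 to 1 without single animals, and at 18 h (1) it was 0 in the fit over all groups and 0 to 3 without single animals. The cause of these changes was not tested. Fos calls were also lost in the fit over all groups for time and medium with doxycycline (adjusted p 0.178 to 0.427, edgeR), as were those of Junb in time (0.0549 and 0.0693), and Ier2 at 48 h in NSC medium was lost whichever animal was left out (0.0626 to 0.107). Members near 1 CPM in differentiation medium rest on few counts, as low as 28 for Arc and Fosb, 43 for Ier3 and 47 for Egr3. Fosl1 and Egr2 were also near 1 CPM at 6 h of differentiation, on as few as 77 and 83 counts.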
